A study of Mus musculus with 12 samples.

Results

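Interferon-stimulated and antigen presentation genes were followed in cultured mouse hippocampal neurons. The set was a list of 39 gene names, and a gene was kept as a member if its deposited estimated count averaged at least 10 over the 12 libraries. This left 38 of 19336 loci with a gene name, all of which were abundant enough to be tested. The gene left out was Ifi44, which reached at most 0.509 CPM (counts per 1000000 counts, vehicle replicate 1) and was at 0 in all 3 libraries with DAPT + sErbB4. By role, the members were 2 receptor subunits, 4 transcription factors, 4 sensors and their partners, 7 genes of the Ifit and Ifitm families, 2 genes of the ISG15 system, 11 other effectors and 8 genes of antigen presentation.

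All cultures came from the hippocampus of WT mouse pups, so no group carried a mutation. The pups were at P4 by the labels, and the study also gives an age range that begins at P4. The 4 groups were vehicle, 20 nM sErbB4 (the soluble ectodomain of the receptor ErbB4, which binds Nrg1 on neurons) for 4 h, 20 µM DAPT (a small-molecule inhibitor of γ-secretase, the membrane protease that cuts Nrg1, Notch receptors and other substrates), and DAPT followed by sErbB4. Each group had 3 libraries. By the study these were platings made from several mice and litters, and it does not say how mice or litters were divided among them. The p-values measure the spread between platings, which may or may not hold the spread between litters. DAPT was given after 8 d in culture by the labels, and the study states its length both as overnight and as a full day.

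Type I interferons bind a receptor of Ifnar1 and Ifnar2, whose kinases phosphorylate Stat2. It acts in a complex with Irf9 on a short DNA element, the interferon-stimulated response element, ahead of antiviral genes, many of which neurons and glia also express at a low level without infection. Antigen presentation uses a connected set of genes: the immunoproteasome (Psmb8, Psmb9) cuts proteins into peptides, Tap1 and Tap2 pump the peptides into the endoplasmic reticulum, Tapbp helps to load them, and the class I heavy chains (H2-D1, H2-K1) carry them to the surface with B2m.

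In units of 1000000 estimated counts, library totals ranged from 36.5 to 54.4, of which 18.7 to 30.8 fell on named loci. The ribosomal RNA precursor Rn45s held 31.4 to 44.6% of the named counts. On the second principal component sErbB4 replicate 1 stood at -23.8 against 8.86 and 10.1 for the other sErbB4 libraries, and vehicle replicate 3 at -10.4 against 3.57 and 6.99. These 2 libraries also gave the lowest value of their group for 25 and 24 of the 38 members. The same share over all genes was not computed, so these counts do not tell whether this was particular to the members. As the label says neuronal culture, cell type markers were checked: 9 neuronal markers summed to 958 to 1229 CPM over the 12 libraries and 9 astrocyte markers to 6025 to 7368 CPM, so glial RNA was present in every library. Of 8 markers of lymphocytes and other leukocytes, only Ptprc could be matched to a gene name of the table, and it stood at 0.543 to 0.980 CPM.

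The sequence ahead of Ifit3, Ifit3b, Ifit1 and a few other members is shown first, because it holds letters that match the core of the interferon-stimulated response element. The core searched was GAAANNGAAA on both strands, which reads TTTCNNTTTC when it lies on the opposite strand. Windows of 250 bases before to 50 bases after the start were taken from RefSeq (GRCm38, the build of the files), and 33 of the 38 members had one. Of these members, 16 held the core (48.5%), and of all 27025 genes with a window 3.99% held it. Capitals mark the core in the stretches below, which run 5′ to 3′ on the strand of the gene and end before the start.
Ifit3, chr19:34583359-34583438, plus strand: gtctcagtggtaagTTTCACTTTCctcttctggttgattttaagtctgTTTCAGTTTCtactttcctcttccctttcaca
Ifit3b, chr19:34607755-34607834, plus strand: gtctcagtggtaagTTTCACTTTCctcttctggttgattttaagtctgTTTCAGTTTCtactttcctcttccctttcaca
Ifit1, chr19:34640769-34640828, plus strand: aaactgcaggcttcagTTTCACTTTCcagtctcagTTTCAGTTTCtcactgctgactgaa
Gbp3, chr3:142559984-142560023, plus strand: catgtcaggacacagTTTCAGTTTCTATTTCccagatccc
Ifitm2, chr7:140955982-140956021, minus strand: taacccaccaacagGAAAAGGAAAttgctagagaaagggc
Isg15, chr4:156200869-156200908, minus strand: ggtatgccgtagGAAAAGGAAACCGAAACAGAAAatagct
B2m, chr2:122147537-122147576, plus strand: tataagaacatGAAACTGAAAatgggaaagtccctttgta

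The 80 bases shown for Ifit3 and Ifit3b were identical at all 80 positions. In Gbp3 the 2 matches overlapped, and in Isg15 3 matches overlapped in a row. Matches were found ahead of members whose RNA was higher with DAPT (Ifit3, Ifit3b), lower with DAPT (Gbp3, Ifitm2) and not called (Ifit1, Isg15, B2m). In Ifitm3, Eif2ak2, Ddx58 and Ifih1 the matches lay after the start. No match was present in the windows of Ifit2, Tap1, Psmb8, Psmb9, H2-D1 and H2-K1. A second core, that of the gamma-activated site known from the response to interferon gamma (TTCNNNGAA, its own reverse complement), was present for 10 of the 33 members (30.3%) and for 9.55% of all genes with a window; the 10 included Irf1, Ifit2 and Psmb8. A match is a run of letters and not a measured binding site.

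**Figure D1:**
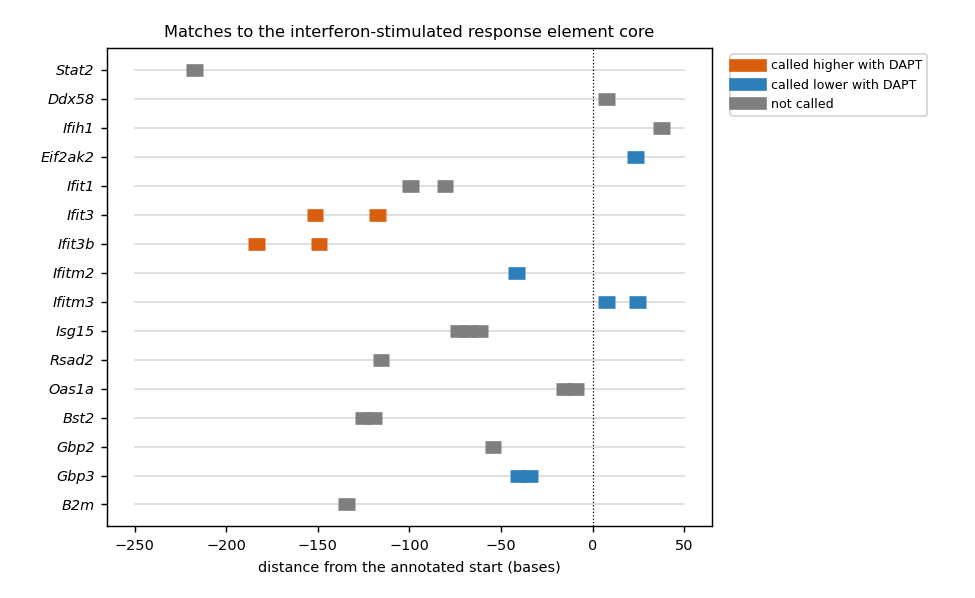
Positions of matches to the interferon-stimulated response element core in the windows of the 16 members that hold one. The horizontal axis is the distance from the annotated start in bases, each bar is one match, and the colour gives the call of the gene in either comparison of DAPT with no DAPT. Members called higher, called lower and not called all appear among the 16.

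DAPT was compared with no DAPT in 2 comparisons that share no library, DAPT against vehicle and DAPT + sErbB4 against sErbB4. A gene was called at a Benjamini-Hochberg adjusted p under 0.05 over all 15656 genes tested and a log2 fold change beyond 0.32 in either direction, by edgeR's quasi-likelihood test. In DAPT against vehicle 3 members were called higher and 8 lower, where 4.66% of all genes tested were called higher and 6.92% lower. In DAPT + sErbB4 against sErbB4 it was again 3 higher and 8 lower, with 4.55% and 7.15% of all genes. The median log2 fold change of the members was -0.25 and -0.17, and that of all genes 0.01 in both. Of the members, 30 of 38 and 26 of 38 had a negative log2 fold change, while 51.1% and 51.9% of all genes had a positive one. Of the 11 members called in each comparison, 9 were called in both in the same direction, which is 81.8% of each list. For all genes that share was 70.0% of the genes called against vehicle and 69.3% of those called against sErbB4. The 9 were Ifit2, Ifit3 and Ifit3b (higher) and Eif2ak2, Ifitm2, Ifitm3, Gbp3, Tap1 and Tap2 (lower).

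The 6 libraries with DAPT did not overlap the 6 without it for 11 members. Ifit2, Ifit3 and Ifit3b (3 of 38) were higher in all 6, a share slightly below the 8.6% of all genes. Because Ifit3 and Ifit3b are close copies, they may not be separate measurements, in this count or in the counts of calls. Eif2ak2, Ifitm2, Ifitm3, Xaf1, Gbp3, Psmb8, Tap1 and Tap2 (8 of 38) were lower in all 6, where 11.8% of all genes were.

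**Figure D2:**
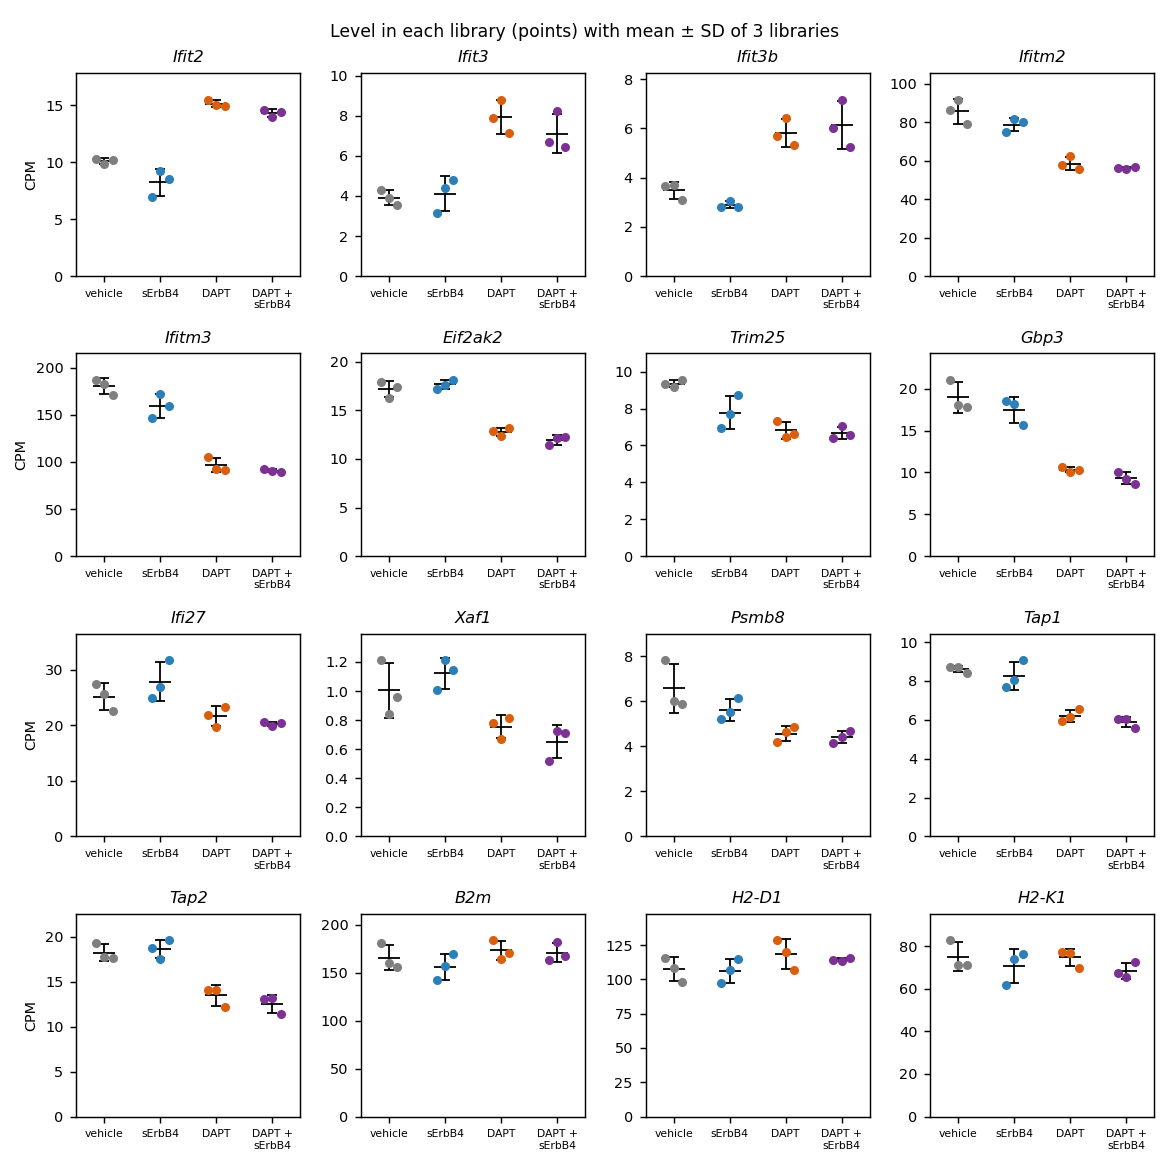
CPM in each of the 12 libraries (points) with the mean and SD of each group (bars) for the 13 members called in either comparison of DAPT with no DAPT and for B2m, H2-D1 and H2-K1, which were not called. Each vertical axis starts at 0. Ifit2, Ifit3 and Ifit3b sit higher in all 6 libraries with DAPT, and Ifitm3 and Gbp3 sit lower in all 6.

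The Ifit genes encode proteins with tetratricopeptide repeats that bind viral RNA or host translation factors. Those among the members lie in the same region of chromosome 19, from the start of Ifit2 at 34550694 to the end of Ifit1 at 34650009 (GRCm38). Ifit2 had 10.3, 9.83 and 10.2 CPM with vehicle, 6.92, 9.26 and 8.51 with sErbB4, 15.5, 14.97 and 14.9 with DAPT, and 14.6, 13.9 and 14.4 with DAPT + sErbB4. The lowest library with DAPT was thus above the highest without it. DAPT raised Ifit2 by 0.58 on the log2 scale against vehicle (SE 0.08, adjusted p = 0.00035, edgeR quasi-likelihood test), a 1.495-fold change. In the presence of sErbB4 it raised Ifit2 by 0.79 (SE 0.08, adjusted p = 3.2e-05, same edgeR test).

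Ifit3 had 4.31, 3.88 and 3.55 CPM with vehicle, 3.14, 4.41 and 4.79 with sErbB4, 7.88, 8.81 and 7.15 with DAPT, and 6.70, 8.22 and 6.44 with DAPT + sErbB4. Its level was 2.02-fold higher with DAPT than with vehicle (log2 fold change 1.01, SE 0.15, adjusted p = 0.00065, edgeR). With sErbB4 present in both groups the log2 fold change was 0.79 (SE 0.15, adjusted p = 0.0027, edgeR).

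Ifit3b, the close copy of Ifit3, had 3.68, 3.71 and 3.09 CPM with vehicle, 2.82, 3.06 and 2.82 with sErbB4, 5.69, 6.44 and 5.32 with DAPT, and 6.00, 7.17 and 5.23 with DAPT + sErbB4. It rose by 0.73 (SE 0.13, adjusted p = 0.0017, edgeR) and by 1.08 (SE 0.13, adjusted p = 0.00011, edgeR) on the log2 scale. The longest protein-coding transcripts of Ifit3 and Ifit3b share 98.0% of 1697 aligned bases, so reads of the pair may have been divided between them and their separate values are uncertain. Transcripts of Ifit2 and Ifit3 share 69.3% of 932 aligned bases.

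Ifit1, the remaining Ifit gene among the members, was near 1 CPM in every group, with means of 1.03 ± 0.159 (vehicle), 0.924 ± 0.284 (sErbB4), 1.12 ± 0.306 (DAPT) and 1.12 ± 0.353 (DAPT + sErbB4) (SD, n = 3). It was not called, with log2 fold changes of 0.11 (95% interval -0.63 to 0.86) and 0.27 (-0.47 to 1.01). These intervals are wide enough to hold a change as large as that of Ifit2.

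The Ifitm genes encode small membrane proteins that hinder the entry of viruses into cells, and the members called in this family moved the other way. They lie on chromosome 7. Ifitm3 had 187, 183 and 171 CPM with vehicle, 147, 172 and 159 with sErbB4, 105, 93.0 and 91.0 with DAPT, and 92.9, 89.9 and 89.3 with DAPT + sErbB4. The libraries with DAPT, in particular those with DAPT + sErbB4, lay close together and below all others. DAPT lowered Ifitm3 to 0.534 of the vehicle level (log2 fold change -0.91, SE 0.07, adjusted p = 2.9e-06, edgeR) and to 0.569 of the sErbB4 level (-0.81, SE 0.07, adjusted p = 5.5e-06, edgeR).

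Ifitm2 had 86.5, 91.7 and 78.9 CPM with vehicle, 74.8, 81.7 and 79.9 with sErbB4, 57.7, 62.2 and 55.7 with DAPT, and 56.1, 55.8 and 56.6 with DAPT + sErbB4. It fell by 0.55 (SE 0.06, adjusted p = 5.6e-05, edgeR) and by 0.49 (SE 0.06, adjusted p = 0.00013, edgeR) on the log2 scale. The transcripts of Ifitm2 and Ifitm3 share 79.0% of 539 aligned bases. Ifitm1 was at 0 in DAPT replicates 1 and 3, where a count of 0 allows up to 0.117 and 0.098 CPM, and at 0.447 CPM in DAPT replicate 2. Its other libraries had 0.403 to 1.35 CPM, with 0.534 to 0.652 CPM in DAPT + sErbB4. It was not called in either comparison (adjusted p = 0.054 and 0.95, edgeR). Against vehicle it was called lower in 3 of the 21 alternative analyses, among them the fit without DAPT replicate 2.

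**Figure D3:**
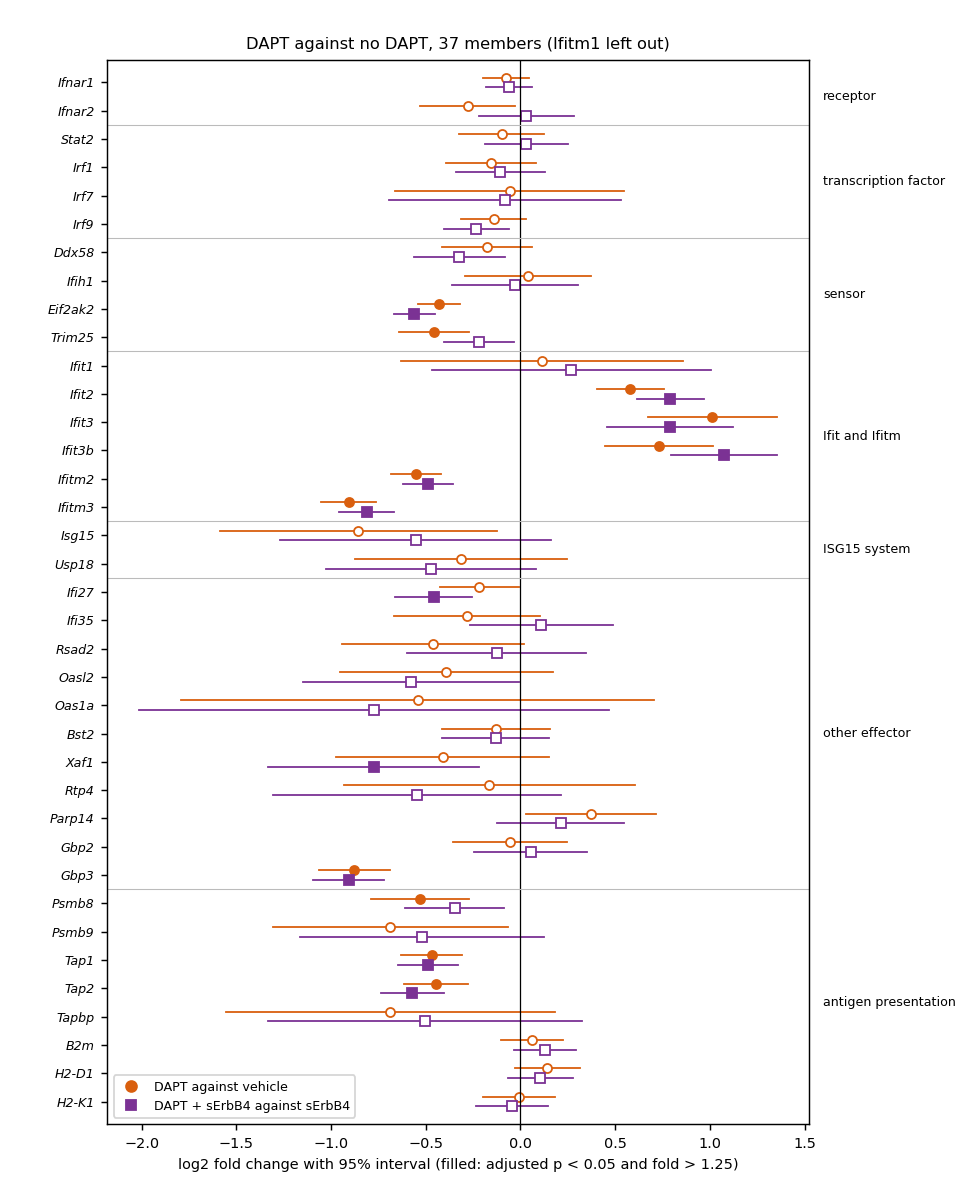
Log2 fold change of 37 members (Ifitm1, with 0 counts in 2 libraries, is left out) in DAPT against vehicle (circles) and in DAPT + sErbB4 against sErbB4 (squares), by role. Lines are 95% intervals, and filled symbols mark genes that were called. Ifit2, Ifit3 and Ifit3b are the filled symbols to the right of 0, and the 8 lower calls of each comparison lie to the left.

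The receptor subunits and transcription factors, which carry the interferon signal to the nucleus, were not called. Ifnar1 had 22.8 ± 0.659, 22.4 ± 1.65, 21.6 ± 0.384 and 21.5 ± 1.01 CPM with vehicle, sErbB4, DAPT and DAPT + sErbB4 (mean ± SD, n = 3), and its log2 fold changes with DAPT were -0.08 (95% interval -0.20 to 0.05) and -0.06 (-0.18 to 0.06). Ifnar2 had 13.8, 15.96 and 19.9 CPM in the vehicle libraries, so vehicle replicate 3 was the highest, and 13.1 to 15.8 CPM elsewhere. Its log2 fold changes were -0.28 (-0.53 to -0.03, adjusted p = 0.11, edgeR) and 0.03 (-0.22 to 0.28). Without vehicle replicate 1 the first of these was called lower (log2 fold change -0.40, adjusted p = 0.020, edgeR).

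Stat2, a subunit of the transcription factor that interferon activates, had 7.19 ± 0.276, 6.76 ± 0.944, 6.72 ± 0.417 and 6.92 ± 0.605 CPM in the 4 groups in the same order. Irf9, the DNA-binding subunit of that factor, had 8.99 ± 0.723, 8.80 ± 0.574, 8.18 ± 0.473 and 7.51 ± 0.422 CPM. Its log2 fold change was -0.14 (SE 0.08, adjusted p = 0.23, edgeR) against vehicle and -0.23 (SE 0.08, adjusted p = 0.048, edgeR) in the presence of sErbB4, the latter below the fold change asked for. Irf1 and Irf7, which switch on interferon-responsive genes and interferon genes, had means of 6.84 to 7.95 and 0.939 to 1.249 CPM over the groups. Neither was called (adjusted p = 0.35 and 0.54 for Irf1, 0.92 and 0.87 for Irf7, edgeR).

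Among the sensors, the kinase PKR stood out. Eif2ak2, which encodes it and which halts translation when double-stranded RNA is bound, had 17.9, 16.3 and 17.4 CPM with vehicle, 17.2, 17.6 and 18.1 with sErbB4, 12.9, 12.3 and 13.1 with DAPT, and 11.4, 12.2 and 12.3 with DAPT + sErbB4. Every library with DAPT was below every library without it. Eif2ak2 fell by 0.43 (SE 0.05, adjusted p = 9.6e-05, edgeR) and by 0.56 (SE 0.05, adjusted p = 1.0e-05, edgeR) on the log2 scale.

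Trim25, a ubiquitin ligase that activates the RNA sensor RIG-I, had 9.32, 9.16 and 9.56 CPM with vehicle, 6.92, 7.69 and 8.71 with sErbB4, 7.33, 6.48 and 6.63 with DAPT, and 6.39, 7.06 and 6.58 with DAPT + sErbB4. It was called lower against vehicle (log2 fold change -0.46, SE 0.08, adjusted p = 0.0023, edgeR). It was not called against sErbB4 (-0.22, SE 0.08, adjusted p = 0.083, edgeR), where the groups overlapped. The difference between the DAPT effects was 0.24 (SE 0.12, adjusted p = 1.0, edgeR interaction term). The RNA sensors themselves were not called. Ddx58 (RIG-I) had 4.39 ± 0.368, 4.12 ± 0.430, 3.90 ± 0.140 and 3.28 ± 0.296 CPM, with log2 fold changes of -0.18 (adjusted p = 0.29, edgeR) and -0.32 (adjusted p = 0.051, edgeR), the second called lower without sErbB4 replicate 2 (-0.41, adjusted p = 0.024) and without DAPT + sErbB4 replicate 2. Ifih1 (MDA5) had log2 fold changes of 0.04 and -0.03 (95% intervals -0.29 to 0.38 and -0.36 to 0.30).

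The ISG15 system, in which the ubiquitin-like protein Isg15 is attached to other proteins and Usp18 removes it, was low and variable. Isg15 had 3.37, 4.33 and 1.64 CPM with vehicle, 3.06, 2.11 and 3.44 with sErbB4, 1.75, 2.10 and 1.31 with DAPT, and 1.87, 2.43 and 1.53 with DAPT + sErbB4. Vehicle replicate 3 overlapped the libraries with DAPT. The log2 fold changes of -0.86 (SE 0.33, adjusted p = 0.089, edgeR) and -0.55 (SE 0.33, adjusted p = 0.26, edgeR) were not called. Without vehicle replicate 3 the first was -1.16 and was called (adjusted p = 0.013, edgeR). Usp18 had means of 1.77, 1.80, 1.43 and 1.29 CPM in the 4 groups and was not called (adjusted p = 0.43 and 0.21, edgeR).

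Of 11 other effectors, Gbp3 moved most clearly. Gbp3 encodes a GTPase of the guanylate-binding family, which acts on the vacuoles of intracellular microbes. It had 21.1, 18.04 and 17.8 CPM with vehicle, 18.5, 18.1 and 15.7 with sErbB4, 10.7, 10.0 and 10.4 with DAPT, and 10.1, 9.23 and 8.68 with DAPT + sErbB4. It fell to 0.545 of the vehicle level (log2 fold change -0.88, SE 0.09, adjusted p = 2.5e-05, edgeR) and to 0.534 of the sErbB4 level (-0.91, SE 0.09, adjusted p = 1.7e-05, edgeR). Its relative Gbp2 was not called and had log2 fold changes of -0.06 (95% interval -0.36 to 0.24) and 0.05 (-0.24 to 0.35). The 2 transcripts share 66.1% of 1644 aligned bases.

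Ifi27, which encodes a mitochondrial membrane protein, had 27.4, 25.6 and 22.5 CPM with vehicle, 25.0, 26.8 and 31.8 with sErbB4, 21.95, 19.7 and 23.2 with DAPT, and 20.5, 19.9 and 20.4 with DAPT + sErbB4. It was called lower in DAPT + sErbB4 against sErbB4 (log2 fold change -0.46, SE 0.09, adjusted p = 0.0041, edgeR) and not in DAPT against vehicle (-0.22, SE 0.10, adjusted p = 0.13, edgeR), where the groups overlapped. Xaf1, an antagonist of the apoptosis inhibitor XIAP, was near 1 CPM. It was at 0.843 to 1.21 CPM without DAPT and 0.522 to 0.817 CPM with it. It was called lower only in the presence of sErbB4 (-0.77, SE 0.25, adjusted p = 0.045, edgeR), and this call was kept in 3 of 21 alternative analyses and in none that left out a library. Bst2 (tetherin, which holds budding viruses at the cell surface) had 22.5 ± 2.95, 22.2 ± 3.27, 20.6 ± 2.32 and 20.4 ± 2.39 CPM and was not called (log2 fold change -0.13 in both, adjusted p = 0.54 and 0.53, edgeR). The other 7 effectors (Ifi35, Rsad2, Oasl2, Oas1a, Rtp4, Parp14 and Gbp2) were called in neither comparison, with log2 fold changes from -0.77 (Oas1a, DAPT + sErbB4 against sErbB4) to 0.37 (Parp14, DAPT against vehicle). Ifi35 was called lower against vehicle without DAPT replicate 3 (-0.51, adjusted p = 0.042, edgeR) and in no other alternative.

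In antigen presentation the peptide pump was lower with DAPT while the class I molecules were not called. Tap1, chr17:34187553-34197225, had 8.73, 8.71 and 8.42 CPM with vehicle, 7.69, 8.04 and 9.08 with sErbB4, 5.97, 6.12 and 6.57 with DAPT, and 6.04, 6.05 and 5.58 with DAPT + sErbB4. Tap2, its partner in the pump (chr17:34203527-34216321), had 19.3, 17.8 and 17.7, then 18.8, 17.6 and 19.6, then 14.1, 14.1 and 12.2, and 13.0, 13.2 and 11.4 CPM in the same order of groups. For both genes every library with DAPT was below every library without it. Tap1 fell by 0.47 (SE 0.07, adjusted p = 0.00079, edgeR) and 0.49 (SE 0.07, adjusted p = 0.00053, edgeR), and Tap2 by 0.44 (SE 0.08, adjusted p = 0.0015, edgeR) and 0.57 (SE 0.08, adjusted p = 0.00024, edgeR) on the log2 scale.

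Psmb8, a catalytic subunit of the immunoproteasome that lies next to Tap1, had 7.83, 6.01 and 5.87 CPM with vehicle, 5.19, 5.52 and 6.14 with sErbB4, 4.21, 4.65 and 4.83 with DAPT, and 4.13, 4.42 and 4.66 with DAPT + sErbB4. It was called lower against vehicle (log2 fold change -0.53, SE 0.12, adjusted p = 0.0070, edgeR) and fell just outside the limit against sErbB4 (-0.35, SE 0.12, adjusted p = 0.052, edgeR). Against sErbB4 it was called lower without sErbB4 replicate 1, without vehicle replicate 1 or 3, and in 3 other alternatives. Psmb9, another subunit, overlaps Tap1 on the opposite strand, so reads of the overlap may have been assigned to either gene. Its means were 3.45 ± 0.389, 2.26 ± 0.713, 2.14 ± 0.510 and 1.59 ± 0.560 CPM, and it was not called (log2 fold change -0.69, adjusted p = 0.11, and -0.52, adjusted p = 0.24, edgeR).

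B2m, the light chain of class I molecules, had 181, 161 and 156 CPM with vehicle, 142, 157 and 169 with sErbB4, 184, 165 and 171 with DAPT, and 163, 182 and 168 with DAPT + sErbB4. The ranges of all 4 groups overlapped. Its log2 fold changes were 0.06 (95% interval -0.10 to 0.23) and 0.13 (-0.03 to 0.29). For H2-D1, with means of 107, 106, 119 and 114 CPM, they were 0.14 (-0.03 to 0.31) and 0.11 (-0.07 to 0.28). For H2-K1, with means of 75.0, 70.7, 74.7 and 68.5 CPM, they were -0.01 (-0.20 to 0.18) and -0.04 (-0.23 to 0.14). The intervals of these 3 genes hold no decrease as large as that of Tap1 or Tap2 in either comparison, although the difference between genes was not tested. H2-D1 and H2-K1 transcripts share 90.7% of 1472 aligned bases, so their separate values are uncertain.

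Tapbp (tapasin), which bridges the pump and the class I molecule, varied widely between the DAPT libraries. It had 30.0, 18.2 and 27.6 CPM with vehicle, 29.9, 31.9 and 27.0 with sErbB4, 7.10, 10.2 and 29.0 with DAPT, and 26.1, 19.4 and 17.6 with DAPT + sErbB4. DAPT replicate 3 was at the level of the vehicle libraries and DAPT replicates 1 and 2 were below all other libraries. It was not called (log2 fold change -0.69, adjusted p = 0.25, and -0.50, adjusted p = 0.39, edgeR). Without DAPT replicate 3 it was called lower against vehicle (-1.55, adjusted p = 0.0017, edgeR).

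Summed over the 38 members, the level was 838 to 937 CPM with vehicle, 773 to 871 with sErbB4, 736 to 775 with DAPT and 719 to 733 with DAPT + sErbB4. DAPT replicate 1 was above sErbB4 replicate 1, so the 6 libraries with DAPT overlapped the 6 without it. The 7 Ifit and Ifitm genes summed to 236 to 295 CPM without DAPT and 173 to 192 CPM with it, a sum dominated by Ifitm2 and Ifitm3. The 8 antigen presentation genes summed to 364 to 449 CPM without DAPT and 396 to 424 CPM with it, a sum dominated by B2m, H2-D1 and H2-K1.

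**Figure D4:**
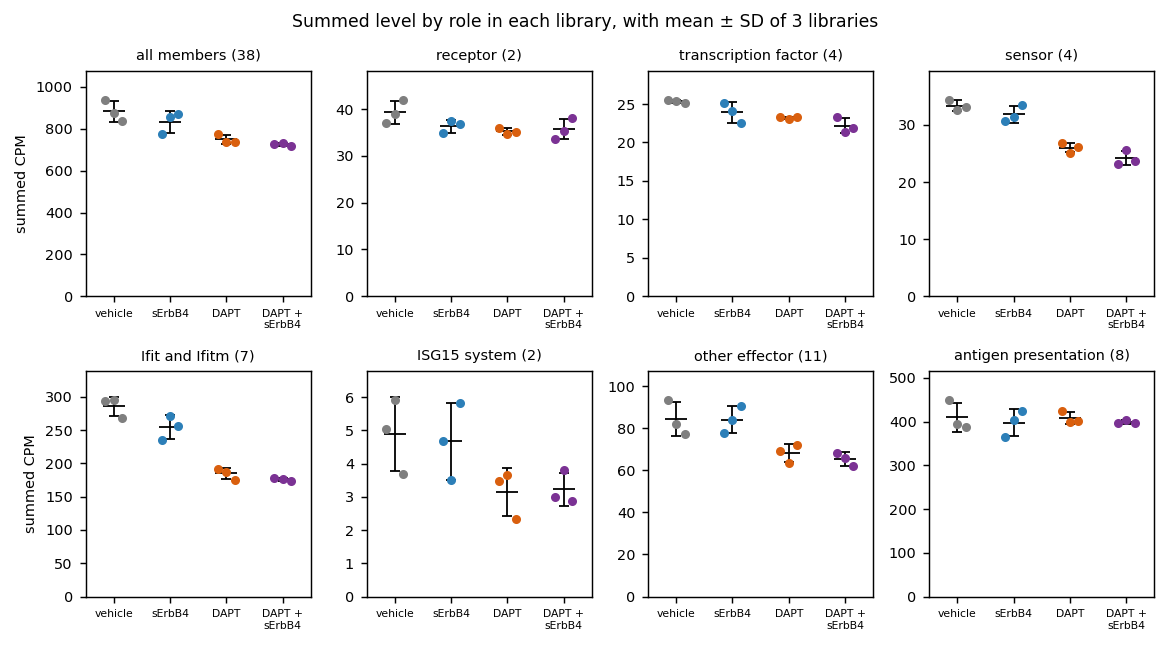
Summed CPM of all 38 members and of each role (number of genes in brackets) in each library, with the mean and SD of the 3 libraries of a group. Each vertical axis starts at 0. The sums for sensors, for the Ifit and Ifitm genes and for other effectors do not overlap between libraries with and without DAPT, and those for antigen presentation do.

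Other genes of the pathway were counted from 5 lists, whose counts stand against the 6.92% and 7.15% of all genes called lower. Of 10 interferon genes, 2 were matched to the table and together reached at most 0.195 CPM in any library, so they could not be tested, and the other 8 were not analysed here. Of 16 receptor and JAK-STAT genes (4 of them members), 2 (12.5%) were called lower and none higher in each comparison of DAPT with no DAPT. They were Stat3, the main transcription factor of the interleukin 6 family, with means of 83.5, 78.5, 61.3 and 54.7 CPM in the 4 groups and log2 fold changes of -0.45 and -0.52, and Socs3, a feedback inhibitor of JAK kinases, with 9.70, 9.17, 5.74 and 4.68 CPM (-0.76 and -0.97). Their adjusted p ranged from 9.4e-06 to 0.0013 (edgeR quasi-likelihood test).

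Of 22 genes of nucleic acid sensing (5 of them members), 5 (22.7%) were called lower and none higher in each comparison. Besides Eif2ak2 and Trim25 these were Mavs, the mitochondrial adaptor of RIG-I (log2 fold changes -0.33 and -0.35), Ticam1, the adaptor of Tlr3 (-0.45 and -0.56), Sting1, the sensor of cyclic dinucleotides (-0.85 and -1.39), and Myd88, an adaptor of most Toll-like receptors, which was called in the presence of sErbB4 (-0.48) and not against vehicle (-0.36, adjusted p = 0.080, edgeR). Sting1 was low, with means of 1.52, 1.61, 0.843 and 0.610 CPM in the 4 groups (adjusted p = 0.022 and 0.0013, edgeR). Calls of genes that are no members were not followed in the alternative analyses.

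Of 44 further interferon-stimulated genes, 6 and 8 were called lower (13.6% and 18.2%) and none higher. The most abundant were Lgals3bp, a secreted glycoprotein (log2 fold changes -0.73 and -0.63), Irgm1, a GTPase of autophagy (-0.85 and -0.85), Ifitm10 (-0.76 and -0.65), Ube2l6, the enzyme that hands Isg15 to its targets (-0.72 against vehicle), Apobec3, a cytidine deaminase (-0.37 in the presence of sErbB4), and Gbp7, a relative of Gbp3 (-0.48 and -0.78). The median log2 fold change of these 44 genes was -0.16 and -0.20. Of 20 further antigen presentation genes, 1 and 3 were called lower (5% and 15%) and none higher, the first of which is below the share of all genes. Psmb10, another subunit of the immunoproteasome, was lower in both (-0.44 and -0.42), and H2-Q4 and H2-DMa in the presence of sErbB4 (-0.40 and -0.45).

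Markers of several cell types moved with DAPT, some lower and some higher. In bulk cultures fewer cells of a type and less RNA per cell cannot be told apart. The 8 oligodendrocyte lineage markers summed to 1007 to 1112 CPM without DAPT and 546 to 599 with it, the 5 markers of proliferating cells to 49.1 to 58.9 and 19.3 to 22.7, and the 8 pericyte and smooth muscle markers to 43.6 to 54.3 and 30.9 to 37.04. The 8 fibroblast markers summed to 308 to 358 CPM without DAPT and 230 to 262 with it, but moved both ways: in each comparison Col1a1, Col1a2, Col3a1, Islr and Pdgfra were called lower and Dcn, Lum and Slc22a6 higher. Some genes stood in more than 1 list, so these sums are not independent. Cspg4 was counted with both the oligodendrocyte lineage and the pericytes, and Pdgfra with both the oligodendrocyte lineage and the fibroblasts. Of the 9 neuronal markers, 3 (33.3%) were called higher against vehicle (Rbfox3, Snap25 and Syt1), 1 (11.1%) against sErbB4 (Slc17a7) and none lower. The share of all genes called higher was 4.66% and 4.55%. Their sums were higher with DAPT, without overlap, in each comparison. They were 958 to 1023 CPM with vehicle and 1075 to 1129 with DAPT, and 1055 to 1159 with sErbB4 and 1164 to 1229 with DAPT + sErbB4. Only when the libraries with and without sErbB4 were pooled did the ranges overlap. The 14 microglia markers summed to 231 to 264 CPM without DAPT and 228 to 261 with it. Of these 14, 1 was called lower against vehicle (Cx3cr1, 7.14%, near the share of all genes). Against sErbB4 3 were called lower (Cx3cr1, Aif1 and Fcrls, 21.4%), where 7.15% of all genes were. The 9 astrocyte markers summed to 6315 to 7078 CPM with vehicle and 6945 to 7368 with DAPT, which overlapped. Their sum was 6025 to 6302 CPM with sErbB4 and 6577 to 6850 with DAPT + sErbB4, higher and without overlap. In each comparison 4 of the 9 (44.4%) were called lower and 1 (11.1%) higher, so the calls and the sum did not move alike. Of all genes, 6.92% and 7.15% were called lower. The 10 endothelial markers summed to 7.40 to 9.86 and 7.47 to 9.30 CPM, and none of the 6 tested was called. Of 6 ependymal and choroid plexus markers, none was called against vehicle and 1 was called lower against sErbB4 (Rarres2). The part of these cells in the changes of the members was not tested.

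Adding sErbB4 was compared in the absence of DAPT (sErbB4 against vehicle) and in its presence (DAPT + sErbB4 against DAPT). No member was called in the first, in which 0.0319% of all genes were called, or in the second, in which 0% were. At an unadjusted p under 0.05 there were 3 of 38 members in the first and 1 in the second. Of all 15656 genes, 1184 and 1442 were under that limit, so neither count of members stood above the share of all genes by more than a trace. DESeq2 and limma also called 0 members in both. The smallest unadjusted p in the absence of DAPT belonged to Ifit2 (log2 fold change -0.29, 95% interval -0.48 to -0.10, adjusted p = 0.50, edgeR) and Trim25 (-0.27, -0.45 to -0.08, adjusted p = 0.55, edgeR). For both genes sErbB4 replicate 1, the library that stood apart, was the lowest of its group. In the presence of DAPT they belonged to Ddx58 (-0.24, -0.48 to 0.00, adjusted p = 0.54, edgeR) and Ifitm1. Both comparisons had a negative log2 fold change for most members, 28 and 30 of 38, with medians of -0.09 and -0.08 against 0.00 for all genes. Of all genes, 49.1% and 50.6% had a positive log2 fold change. In the first comparison sErbB4 replicate 1 and vehicle replicate 3 were the lowest of their groups for 25 and 24 of the 38 members.

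**Figure D5:**
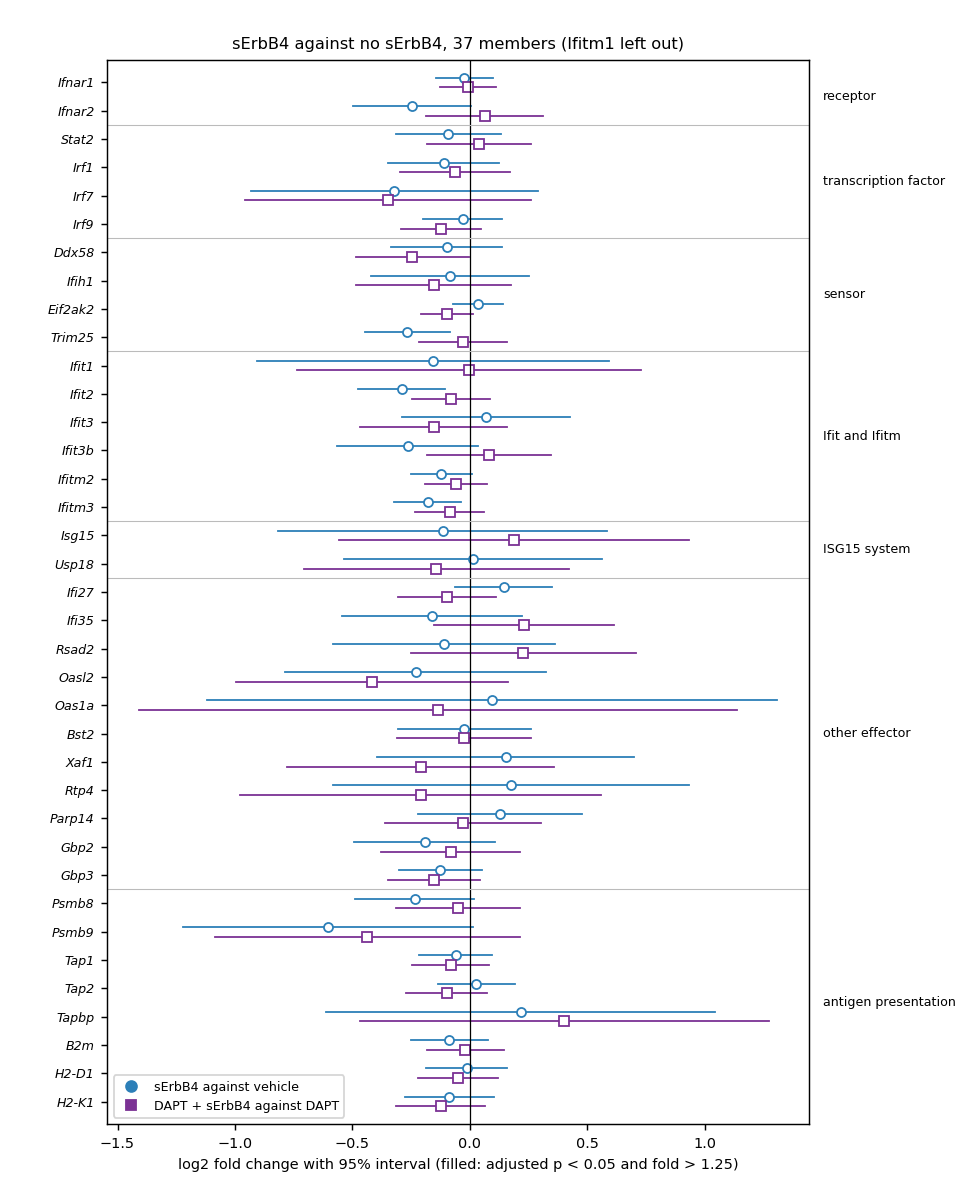
Log2 fold change of 37 members (Ifitm1 is left out) in sErbB4 against vehicle (circles) and in DAPT + sErbB4 against DAPT (squares), by role. Lines are 95% intervals. No symbol is filled, since no member was called in either comparison.

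The interaction term, which asks whether the effect of sErbB4 differed with and without DAPT, called no member, with 0.00639% of all genes called. At an unadjusted p under 0.05 there was 1 of 38 members, where 565 of 15656 genes were. That member was Ifitm1, whose DAPT libraries include 2 with no count. By unadjusted p the next member was Trim25 (0.24, SE 0.12). DESeq2 and limma called 0 members. DAPT was also compared with sErbB4, a contrast that differs in both treatments and shares its libraries with the comparisons above. There 3 members were called higher and 7 lower, with 4.05% and 6.04% of all genes. Ifit2, Ifit3 and Ifit3b were higher, and Eif2ak2, Ifitm2, Ifitm3, Ifi27, Gbp3, Tap1 and Tap2 were lower. The call of Ifi27 there was lost without sErbB4 replicate 3 (adjusted p = 0.058, edgeR) and without DAPT replicate 2 (adjusted p = 0.067, edgeR).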

How the data were processed

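RNA from 12 hippocampal cultures was sequenced by the authors. According to the study and the processing notes, they used Trimmomatic for trimming, HISAT2 for alignment to the mm10 build and StringTie for assembly; the notes also name FastQC, MultiQC and limma. Versions are not given in the sources used here. The deposited values are estimated counts per locus and library, not normalized, so assignment between near-identical genes rests on the assembly. They were rounded. Loci with no gene name (1976 of 21312, with 43.4 to 51.8% of the counts) were left out. Counts were filtered with filterByExpr by group (15656 genes), scaled by TMM and tested with edgeR 4.0.16 in R 4.3.3, with a mean for each of 4 groups (8 residual degrees of freedom). The SE is the log2 fold change divided by the root of F. CPM values use TMM library sizes. The floor for a count of 0 is 3 counts and covers counting error only. Alternatives included DESeq2 1.42.0, limma 3.58.1, other scalings and filters, a replicate block and leaving out each library. The script was tested on simulated data. Gene positions and transcripts came from GENCODE and promoters from RefSeq.

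One gene of the pathway lists is not reported here. Members, lists and named genes were chosen with earlier results of these data known. Named were all members called in any comparison, a fixed list of core members, the most abundant called genes of each pathway list (up to 6), and the 2 members with the smallest p where none was called. Some other genes, not in every case, are named where a count of 5 or fewer members or markers is given or a single library decided the call. They were chosen after their values were seen.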

Additional observations from a re-analysis of the deposited data

How the results depend on the processing

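The counts of members called were recomputed under 21 alternatives. In DAPT against vehicle 3 were higher in all of them and 8 to 10 lower; in DAPT + sErbB4 against sErbB4 3 were higher and 7 to 9 lower; in DAPT against sErbB4 3 were higher and 6 to 8 lower. Leaving out 1 library at a time gave 8 to 10, 7 to 8 and 6 to 8 lower. In the other 3 comparisons 0 members were called under every alternative run. The 9 members called in both comparisons of DAPT with no DAPT kept both calls in all 21, and so did Trim25 and Psmb8 against vehicle and Ifi27 against sErbB4. Without sErbB4 replicate 1 and vehicle replicate 3 together, an alternative chosen after seeing the data, the counts were 3 higher and 9 lower, and 3 higher and 8 lower.

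With the replicate number as a block, 3 members were higher and 9 lower against vehicle, where Ifitm1 was added, and 3 higher and 7 lower against sErbB4, where Xaf1 was lost. The numbers do not pair the libraries over the whole design: deviations of the 18 same-number pairs correlated at -0.62 to 0.56, with 8 above 0.1, and for 5 of 12 libraries the nearest library carried the same number. The 3 pairs of vehicle and DAPT were at 0.14 to 0.34 and those of sErbB4 and DAPT + sErbB4 at -0.19 to 0.20. No other call of a member in these comparisons was changed by the block.

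Besides the gains with a single library left out that are given with Ifitm1, Ifnar2, Isg15, Ifi35, Tapbp, Ddx58 and Psmb8, calls were gained by Ifitm1 with limma, and by Psmb9 (against vehicle) and Tapbp (against sErbB4) in fits of only the groups compared. In DAPT against sErbB4, Ifitm1 was added without DAPT replicate 2, and Tapbp with limma and without DAPT replicate 3.

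Signs turned only for members that were not called and lay near 0. In DAPT against vehicle, H2-K1 was 0.038 by limma, 0.0050 with Rn45s removed and 0.012 with unnamed loci kept. With 1 library left out, the log2 fold changes there ranged from -0.046 to 0.070 for H2-K1, -0.092 to 0.31 for Ifit1 and -0.22 to 0.042 for Irf7. In DAPT + sErbB4 against sErbB4 they ranged from -0.13 to 0.013 for H2-K1, -0.060 to 0.073 for Ifnar2, -0.28 to 0.14 for Irf7 and -0.046 to 0.14 for Stat2. The cause was not tested. The summed level of the members differed by -0.24 and -0.20 on the log2 scale, and by -0.22 and -0.20 with Rn45s removed. Summing loci of the same gene name was not run, since every name has 1 locus. Among members near 1 CPM, the intervals of Ifit1 were wide enough to hold a change as large as that of Ifit2. Xaf1, at a similar level, was called only in DAPT + sErbB4 against sErbB4 (adjusted p = 0.045, edgeR). That call was kept in 3 of 21 alternatives and in 0 of the 12 that left out a library.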
